A study of Mus musculus with 10 samples.

Results

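The T cell receptor complex and its coreceptors were followed through 10 genes: the CD3 chains Cd3e, Cd3d, Cd3g and Cd247, the kinase Lck, the coreceptors Cd4, Cd8a and Cd8b1, and the adhesion and tuning receptors Cd2 and Cd5. They were taken by name from a table of 54532 genes, and 10 of 10 were found. Bulk RNA sequencing had been done on whole mouse kidneys 10 days after the ureter on that side was blocked (unilateral ureteral obstruction, or UUO), an injury model in which urine backs up and the kidney becomes inflamed and fibrotic. There were 5 libraries labelled Padi4-knockout (KO 1 to KO 5) and 5 labelled wild type (WT 1 to WT 5), and all 10 kidneys were obstructed. The sources used here do not give the age, sex, strain or knockout allele of the mice, nor whether each library came from a separate animal, so p-values measure the spread between these libraries. The study's title names inflammation and fibrosis, and Padi4 encodes peptidylarginine deiminase 4, which citrullinates histones. The question here was how transcripts of T cells compared between the genotypes.

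The T cell receptor itself has no signalling tail. An antigen-binding pair of chains sits in the membrane with the CD3 chains, whose tails carry tyrosine motifs. CD4 binds MHC class II and CD8 binds MHC class I on the presenting cell, and both bring Lck to the complex, where it phosphorylates those tyrosines. T cells enter the obstructed kidney together with macrophages and other leukocytes, and these transcripts are made mainly by lymphocytes. In whole tissue, fewer T cells and less of each transcript per T cell cannot be told apart.

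Depth and library quality set the limits of what follows. Each library held 15002922 to 16886945 reads assigned to genes. WT 1 stood apart from the other 9: 8.11% of its reads were mitochondrial against 3.18% to 5.79% elsewhere, and it lay at -22.8 on the first principal component of the 500 most variable genes, where the others lay between -6.18 and 11.4. Padi4 measured 0.221, 0.152, 0.535, 0.121 and 0.249 FPKM (read fragments scaled by gene length and a size factor of each library) in KO 1 to KO 5, against 0.0915, 0.342, 0.335, 0.424 and 0.598 FPKM in WT 1 to WT 5. The groups overlapped, and the difference was within the spread (exact two-sided permutation p = 0.373), so the level of Padi4 does not check the genotype labels. The sources used here do not name the deleted exons. Nephron segment markers, 8 genes, were present in every library and summed to 762 to 1540 FPKM in KO kidneys and 777 to 1560 FPKM in WT kidneys, highest in WT 1.

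All 10 genes had lower mean values in Padi4-knockout than in wild-type kidneys, and none passed the test over all genes. The median log2 difference of the 10 was -0.39, where the median of all 19370 genes that averaged 0.1 FPKM or more was 0.00. No gene of the 10 passed an adjusted p of 0.05 in limma, a linear model fitted across all genes, and neither did any other gene: 0.00% were called with a cut at 0.1 FPKM and 0.00% of 13435 with a cut at 1 FPKM, where limma gave 544 genes (4.05%) an unadjusted p under 0.05. Limma-voom on the recovered reads made 0 calls too (0.00%) and put 529 genes (3.94%) under an unadjusted p of 0.05. An unadjusted p under 0.05 with a lower value in knockout kidneys was reached by 5 of the 10 genes, Cd3e, Lck, Cd8b1, Cd5 and Cd8a, and by 2.19% of the 19370 genes tested. A lower value of any size was found for 49.9% of all genes. The groups did not overlap for 0 of the 10 genes, against 0.454% of all genes. The genes vary together, so their shared direction is not 10 separate observations.

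**Figure D1:**
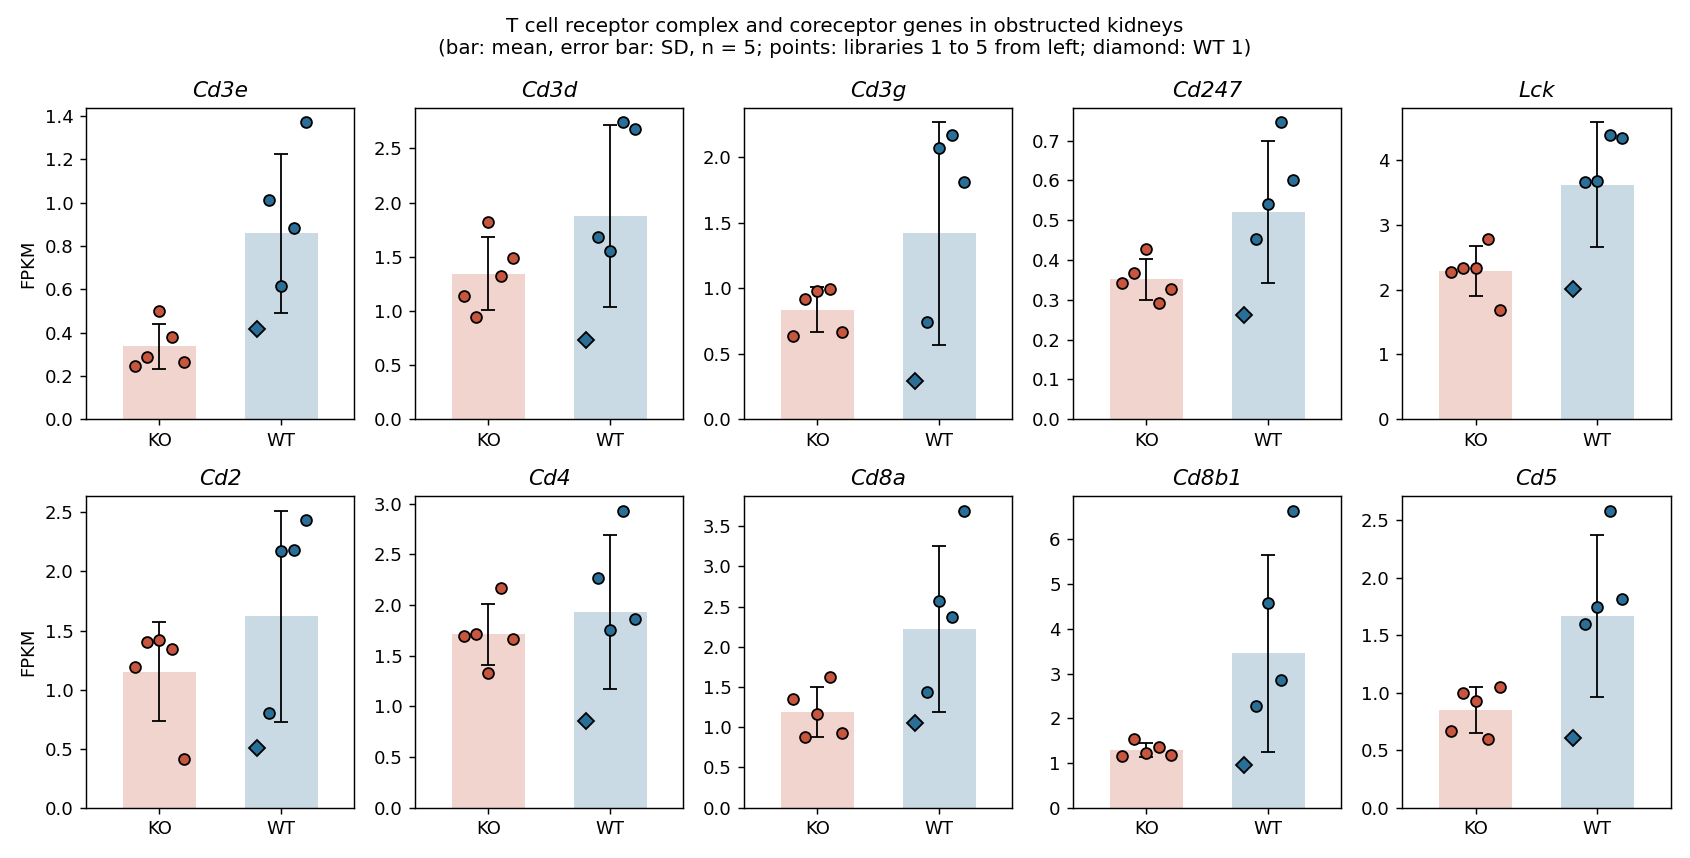
FPKM of each gene (vertical axes, starting at 0) in the 5 KO libraries (left, red) and the 5 WT libraries (right, blue), with the mean as a bar and the SD as the error bar. The diamond is WT 1, the lowest wild-type library for all 10 genes, and WT 2 to WT 5 lie mostly above the knockout libraries.

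For some of the genes the groups overlapped through WT 1 alone. Of the 5 wild-type libraries, WT 1 was the lowest for 10 of the 10 genes, and it was the lowest of all 10 libraries for 5 of them. The 10 genes summed to 10.7, 11.4, 12.1, 12.9 and 9.67 FPKM in KO 1 to KO 5, against 7.69, 16.0, 21.3, 23.8 and 27.3 FPKM in WT 1 to WT 5. The knockout libraries thus lay close together, and the wild-type libraries ran from below all of them to more than any of them. Without WT 1 the groups did not overlap for 5 of the 10 genes, Cd3e, Cd247, Lck, Cd8b1 and Cd5, and for 1.35% of the 19381 genes then tested. The median log2 difference of the 10 genes became -0.54, an unadjusted p under 0.05 was reached by 8 of them and, with lower values in knockout kidneys, by 3.45% of all genes, and still 0 of the 10 passed the adjusted threshold (0.00% of all genes). WT 1 was the lowest wild-type library for all 10 genes, so leaving it out could only raise their wild-type means and lowest values. That does not hold for all genes, so the shares of all genes are not a like background for these counts. The part of WT 1's distinct composition in these values was not tested.

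Among the CD3 chains the difference was largest in Cd3e, which encodes the epsilon chain found in both CD3 dimers of the receptor. Cd3g, Cd3d and Cd3e are neighbours on chromosome 9: Cd3g and Cd3d are transcribed away from each other across a gap of 1.36 kb, and Cd3e lies 11.4 kb beyond Cd3d. Promoter windows from RefSeq, 250 bases before to 50 after a start on build GRCm38.p6, were found for 7 of the 10 genes, in 8 windows, since Lck has a distal and a proximal start 15.3 kb apart. The 3 windows of the CD3 cluster and the 2 of Lck, the most highly expressed member, are shown as background. The motifs were not tested against the difference between genotypes. Capitals mark matches on either strand to the letters AGGAAG, a core bound by ETS factors. They also mark TGTGGT, a core bound by RUNX factors. The single match in the Cd3g window is to AGATAA, a core bound by the family of Gata3.
Cd3d chr9:44981536-44981835 (plus strand): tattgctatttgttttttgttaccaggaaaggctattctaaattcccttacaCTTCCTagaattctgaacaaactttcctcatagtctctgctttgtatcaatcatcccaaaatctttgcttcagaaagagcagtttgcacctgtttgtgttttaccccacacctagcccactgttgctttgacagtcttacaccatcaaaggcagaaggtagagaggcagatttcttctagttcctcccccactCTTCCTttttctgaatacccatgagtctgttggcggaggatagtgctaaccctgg
Cd3e chr9:45009562-45009861 (minus strand): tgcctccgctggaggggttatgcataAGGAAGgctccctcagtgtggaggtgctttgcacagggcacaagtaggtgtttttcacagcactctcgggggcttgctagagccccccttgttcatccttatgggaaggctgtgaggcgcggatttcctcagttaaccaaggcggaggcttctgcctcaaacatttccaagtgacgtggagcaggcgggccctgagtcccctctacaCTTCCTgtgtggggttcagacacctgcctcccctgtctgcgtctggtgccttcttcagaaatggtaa
Cd3g chr9:44980382-44980681 (minus strand): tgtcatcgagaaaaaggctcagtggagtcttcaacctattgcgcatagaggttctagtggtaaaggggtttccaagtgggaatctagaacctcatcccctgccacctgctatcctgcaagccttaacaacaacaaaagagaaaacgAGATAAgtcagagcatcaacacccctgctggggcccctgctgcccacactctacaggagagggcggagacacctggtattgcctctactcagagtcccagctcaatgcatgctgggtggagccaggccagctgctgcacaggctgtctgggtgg
Lck proximal start chr4:129558323-129558622 (minus strand): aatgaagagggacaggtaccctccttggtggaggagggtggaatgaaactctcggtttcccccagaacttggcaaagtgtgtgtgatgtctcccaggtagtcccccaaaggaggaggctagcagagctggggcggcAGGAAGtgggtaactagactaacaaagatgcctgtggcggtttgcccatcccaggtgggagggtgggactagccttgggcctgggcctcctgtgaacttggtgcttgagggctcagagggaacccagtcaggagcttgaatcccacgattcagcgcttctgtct
Lck distal start chr4:129573592-129573891 (minus strand): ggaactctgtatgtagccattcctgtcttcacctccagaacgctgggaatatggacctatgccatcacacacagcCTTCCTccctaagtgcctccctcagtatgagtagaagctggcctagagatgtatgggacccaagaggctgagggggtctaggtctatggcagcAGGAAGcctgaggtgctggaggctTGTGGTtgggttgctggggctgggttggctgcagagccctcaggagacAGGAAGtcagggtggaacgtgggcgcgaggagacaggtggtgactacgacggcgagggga

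The AGGAAG core was found in 6 of the 8 windows and in 35.4% of 32851 promoter windows of all genes. TGTGGT was found only in the distal Lck window among the 8, and in 16.8% of all windows. AGATAA was found only in the Cd3g window among the 8, and in 11.2% of all windows. The letters TATAAA were in 0 of the 8 windows and in 13.6% of all windows. No match overlapped a match to another of these motifs. The values per gene pool the transcripts from both Lck starts, which were not told apart.

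Cd3e measured 0.247, 0.285, 0.501, 0.381 and 0.266 FPKM in KO 1 to KO 5, against 0.416, 1.01, 0.617, 0.883 and 1.37 FPKM in WT 1 to WT 5. WT 2 to WT 5 lay above every knockout library, and WT 1 lay inside the knockout range. The means were 0.336 ± 0.106 FPKM in KO and 0.861 ± 0.369 FPKM in WT kidneys (SD, n = 5 each), 61.0% lower in KO. Cd3e fell below the cut of 1 FPKM used for the main test, so its log2 difference of -0.46 (SE 0.131, limma adjusted p = 0.957) came from the fit with a cut of 0.1 FPKM. The scale of log2(FPKM + 1) shrinks the change of so low a gene, and limma-voom on the recovered reads gave -1.29 (adjusted p = 0.959). It rested on 16 to 34 reads per library in KO and 23 to 91 in WT kidneys. The antisense gene model Gm48719 overlaps Cd3e and had 2 reads in all libraries together.

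The other CD3 chains had smaller differences. Cd3d, the delta chain that pairs with epsilon, measured 1.14, 0.943, 1.82, 1.32 and 1.49 FPKM in KO 1 to KO 5, against 0.732, 1.68, 1.55, 2.74 and 2.68 FPKM in WT 1 to WT 5. Only WT 4 and WT 5 were above every knockout library, and the log2 difference was -0.25 (SE 0.2, limma adjusted p = 0.976). It was -0.42 without WT 1, -0.14 without WT 4 and -0.15 without WT 5. Cd3g, the gamma chain of the second dimer with epsilon, measured 0.635, 0.916, 0.975, 0.992 and 0.663 FPKM in KO 1 to KO 5, against 0.293, 0.74, 2.07, 2.17 and 1.81 FPKM in WT 1 to WT 5. The wild-type libraries fell apart, with WT 3 to WT 5 above every knockout library and WT 1 and WT 2 within or below their range. Its log2 difference was -0.32 (SE 0.234, limma adjusted p = 0.976), or -0.52 without WT 1, -0.21 without WT 3 and -0.20 without WT 4. Cd247 encodes the zeta chain, the part of the complex with the most tyrosine motifs, and NK cells use it too. It measured 0.342, 0.367, 0.429, 0.292 and 0.328 FPKM in KO 1 to KO 5, against 0.263, 0.454, 0.54, 0.746 and 0.601 FPKM in WT 1 to WT 5. WT 2 to WT 5 were above every knockout library. With a mean under 1 FPKM, Cd247 was fitted with the lower cut, and its log2 difference was -0.16 (SE 0.0917, adjusted p = 0.957 by limma). Its gene model shares 12124 bases with Pou2f1 on the opposite strand, and as the handling of strand is not given, reads there could belong to either gene.

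Lck was the most abundant of the 10 per length in both groups, and it rested on 82 to 126 reads per library in KO and 80 to 207 in WT kidneys. It measured 2.28, 2.34, 2.34, 2.79 and 1.69 FPKM in KO 1 to KO 5, against 2.01, 3.67, 3.68, 4.39 and 4.35 FPKM in WT 1 to WT 5. WT 2 to WT 5 lay above every knockout library by a clear step, and WT 1 lay among the knockout libraries. The means were 2.29 ± 0.393 FPKM in KO and 3.62 ± 0.963 FPKM in WT kidneys (SD, n = 5 each), which is -0.47 on the log2 scale (SE 0.158, adjusted p = 0.976 by limma). Without WT 1 the difference was -0.62 (SE 0.11, limma adjusted p = 0.254), the smallest adjusted p that any of the 10 genes reached in any fit run here. Lck lies on chromosome 4, as Padi4 does, and the gap between them is 11.2 Mb.

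The coreceptors did not share one pattern. On the log2(FPKM + 1) scale the CD8 genes had the lowest differences of the 10 and Cd4 the one nearest 0, while on the recovered reads Cd3e was lowest. Cd8b1, the beta chain that conventional CD8 T cells carry with alpha, measured 1.15, 1.53, 1.22, 1.36 and 1.18 FPKM in KO 1 to KO 5, against 0.945, 2.28, 4.57, 2.85 and 6.64 FPKM in WT 1 to WT 5. The knockout libraries were tightly grouped, WT 2 to WT 5 were above all of them and spread widely, and WT 1 was below all of them. The means were 1.28 ± 0.157 FPKM in KO and 3.46 ± 2.21 FPKM in WT kidneys (SD, n = 5 each), which is -0.82 on the log2 scale (SE 0.291, adjusted p = 0.976 by limma), or -1.08 without WT 1 (limma adjusted p = 0.267). Cd8a, the alpha chain, which some dendritic cells also make, measured 1.35, 0.874, 1.16, 1.62 and 0.928 FPKM in KO 1 to KO 5, against 1.05, 1.44, 2.57, 2.37 and 3.69 FPKM in WT 1 to WT 5. WT 3 to WT 5 were above every knockout library, WT 2 and WT 1 were not, and the log2 difference was -0.51 (SE 0.204, limma adjusted p = 0.976). The genes lie 35.9 kb apart on chromosome 6.

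Cd4, which helper and regulatory T cells carry, measured 1.69, 1.71, 1.33, 2.17 and 1.66 FPKM in KO 1 to KO 5, against 0.86, 2.27, 1.75, 2.93 and 1.86 FPKM in WT 1 to WT 5. Only WT 2 and WT 4 were above every knockout library. The means of 1.71 ± 0.301 FPKM in KO and 1.94 ± 0.757 FPKM in WT kidneys (SD, n = 5 each) differed by -0.08 on the log2 scale (SE 0.175, limma adjusted p = 0.981). Without WT 4 that difference was 0.04, so its direction rested on a single library. The part of cells other than T cells in the values of Cd4 was not tested.

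**Figure D2:**
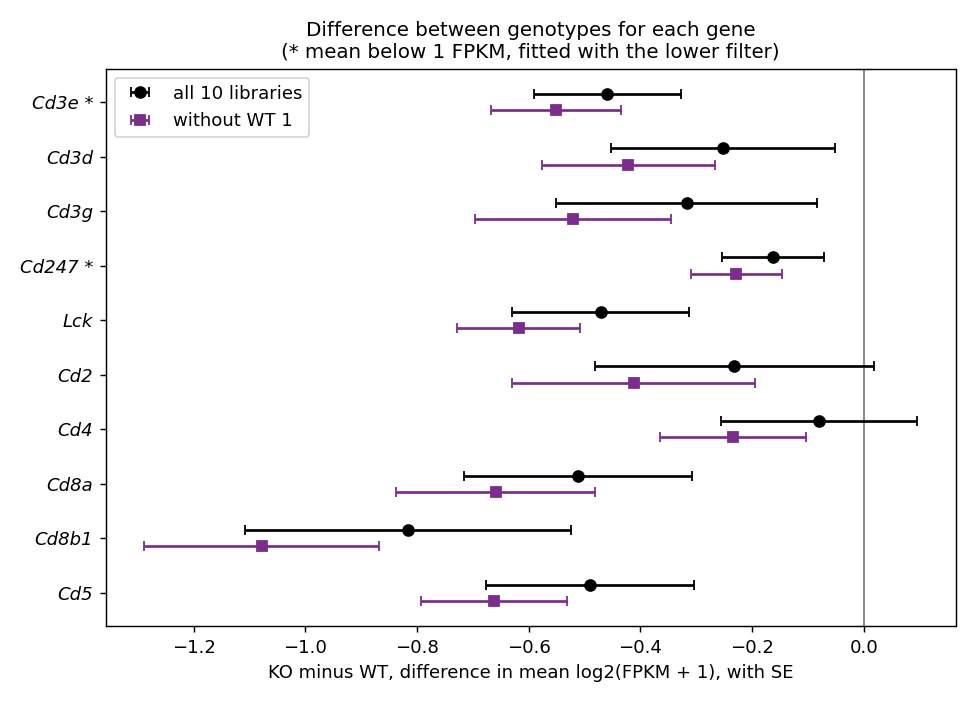
Difference in mean log2(FPKM + 1), knockout minus wild type, for each gene (horizontal axis, bars are SE), with all 10 libraries (black circles) and without WT 1 (purple squares). Cd8b1 has the lowest value, -0.82 with all libraries and -1.08 without WT 1, and Cd4 the one nearest 0, at -0.08 and -0.23.

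The balance between coreceptors was compared within each library, since the amount of T cell RNA affects both sides of a ratio. RNA of other cells could also enter either side, and its part in the ratios was not tested. The FPKM of Cd8a over that of Cd4 was 0.801, 0.51, 0.872, 0.747 and 0.559 in KO 1 to KO 5, against 1.23, 0.631, 1.47, 0.811 and 1.98 in WT 1 to WT 5. All 5 knockout libraries were below 1, with 2 wild-type libraries among them and 3 above. On the scale of log2(FPKM + 1) the KO minus WT difference was -0.43 and did not pass (exact two-sided permutation p = 0.0873, adjusted over 2 ratios p = 0.0873). The FPKM of Cd4 over that of Cd3e was 6.83, 6.02, 2.65, 5.69 and 6.24 in KO 1 to KO 5, against 2.07, 2.24, 2.84, 3.31 and 1.36 in WT 1 to WT 5. KO 1, KO 2, KO 4 and KO 5 were above every wild-type library, and KO 3 was among them. On the scale of log2(FPKM + 1) this difference was 0.38 and did not pass (exact two-sided permutation p = 0.0794, adjusted p = 0.0873). That scale shrinks the low Cd3e values, which rested on 16 to 34 reads per library in KO kidneys. Cd3e also had the largest difference of the CD3 chains. Ratios of Cd4 to the other CD3 chains were not tested, so this ratio does not stand for them. As plain log2 ratios, an alternative chosen after the data were seen, Cd4 to Cd3e differed by 1.21 (exact permutation p = 0.0238, adjusted p = 0.0476) and Cd8a to Cd4 by -0.72 (exact permutation p = 0.0635, adjusted p = 0.0635). Single libraries also decided these calls: on the log2(FPKM + 1) scale, Cd4 to Cd3e passed without KO 3 at 0.48 (exact permutation, adjusted p = 0.0317), and Cd8a to Cd4 passed without WT 2 at -0.57 (exact permutation, adjusted p = 0.0476).

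**Figure D3:**
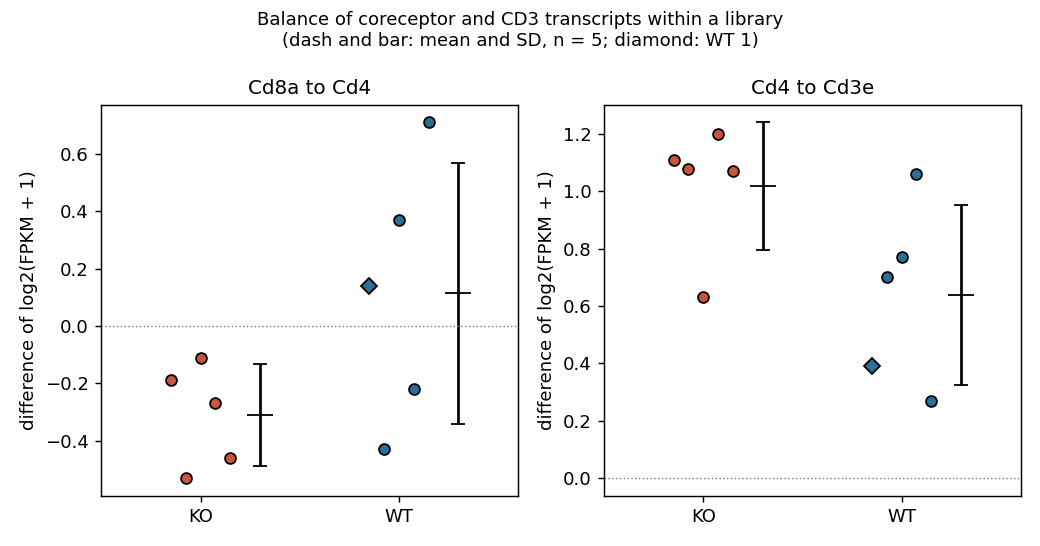
Difference of log2(FPKM + 1) between Cd8a and Cd4 (left) and between Cd4 and Cd3e (right) in each library, KO in red and WT in blue, with mean and SD beside the points. KO 1, KO 2, KO 4 and KO 5 lie above the wild-type libraries in the right panel and KO 3 lies among them, at 0.63.

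Cd5 and Cd2 are receptors outside the CD3 complex. Cd5, which dampens receptor signalling and is also carried by some B cells, measured 0.669, 1.0, 0.93, 0.595 and 1.05 FPKM in KO 1 to KO 5, against 0.606, 1.6, 1.74, 2.58 and 1.81 FPKM in WT 1 to WT 5. WT 2 to WT 5 lay above every knockout library, and the log2 difference was -0.49 (SE 0.186, limma adjusted p = 0.976). Cd2, an adhesion receptor of T and NK cells, measured 1.19, 1.4, 1.42, 1.34 and 0.415 FPKM in KO 1 to KO 5, against 0.508, 0.804, 2.17, 2.18 and 2.44 FPKM in WT 1 to WT 5. KO 5 stood well below the other knockout libraries, and both WT 1 and WT 2 were below the rest of the wild-type group. The log2 difference was -0.23 (SE 0.25, limma adjusted p = 0.976), and its size depended on single libraries. It was -0.41 without WT 1, -0.35 without WT 2, -0.14 without WT 3, -0.14 without WT 4, -0.11 without WT 5 and -0.087 without KO 5.

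In order of level per length, knockout kidneys had Lck first, then Cd4, Cd3d, Cd8b1, Cd8a, Cd2, Cd5, Cd3g, Cd247 and Cd3e. Wild-type kidneys had Lck first, then Cd8b1, Cd8a, Cd4, Cd3d, Cd5, Cd2, Cd3g, Cd3e and Cd247. Among neighbours in these orders, only Cd3g and Cd247 in knockout kidneys were farther apart than their SDs added together, at 0.836 ± 0.173 and 0.352 ± 0.051 FPKM (SD, n = 5 each). Cd8b1 stood higher in the wild-type order than in the knockout order. The summed SDs ignore that the genes were measured in the same libraries, so they cannot settle this. Library by library, Cd8b1 was below Cd4 in KO 1 to KO 5 and in WT 4. It was above Cd4 in WT 1, WT 3 and WT 5, and barely so in WT 2, at 2.28 against 2.27 FPKM. The change of place was not tested.

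Across the 10 libraries the genes went up and down together. Over their 45 pairs, Pearson's r of log2(FPKM + 1) had a median of 0.77, from 0.42 for Cd4 with Cd8b1 to 0.95 for Cd247 with Cd5. The 3 lowest values all involved Cd4, with Cd8b1, Cd3e and Cd8a. These values share libraries and depth and are a description. The tested genes outside the 10 whose pattern was most like the mean of the 10 were AW112010 (Pearson's r 0.98), Trac (0.96), Ccnb1 (0.96), Cxcr6 (0.95) and Fyb (0.94), over 10 libraries. They were picked as the highest of all genes tested, so their r is high by choice. The likeness of Trac, Cxcr6 and Fyb to the 10 in later paragraphs is therefore not separate support. Trac is the constant region of the receptor's alpha chain, Cxcr6 a chemokine receptor of tissue T cells, Fyb an adaptor below the receptor and Ccnb1 a cyclin of dividing cells.

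The receptor's own constant regions, a list of 7 genes, also had their lowest sum in WT 1. Trac measured 3.43, 4.77, 5.59, 4.51 and 3.93 FPKM in KO 1 to KO 5, against 3.16, 6.26, 7.82, 8.1 and 10.1 FPKM in WT 1 to WT 5. As with Lck, WT 2 to WT 5 lay above every knockout library and WT 1 did not, and the log2 difference was -0.51 (SE 0.225, limma adjusted p = 0.976). Trbc1 and Trbc2, the constant regions of the beta chain, differed by -0.37 and -0.63. They are near-identical copies whose reads could be split or dropped in counting, so their values are uncertain. The 7 genes summed to 11.6 to 16.4 FPKM in KO and 8.02 to 31.5 FPKM in WT kidneys. None of the 3 with a mean of at least 1 FPKM passed (0.00% of the 13435 genes in that fit did).

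Of 24 proteins that carry the signal below the receptor, 17 had a mean of at least 1 FPKM, 13 lower and 4 higher in knockouts, and 0 passed in either direction. The median of the 17 was -0.19, against 0.01 for all genes tested at that cut. Lcp2, the scaffold SLP-76, measured 2.84, 2.26, 2.72, 2.88 and 2.89 FPKM in KO 1 to KO 5, against 3.01, 3.78, 4.07, 4.36 and 4.07 FPKM in WT 1 to WT 5. Here every wild-type library, WT 1 included, was above every knockout library, by -0.38 as KO minus WT on the log2 scale (SE 0.0968, adjusted p = 0.976 by limma). The same held for Ptpn22, a phosphatase that restrains Lck, at 3.16 ± 0.0892 FPKM in KO and 3.95 ± 0.533 FPKM in WT kidneys (SD, n = 5 each). Groups that do not overlap, with knockout lower, were seen for 0.454% of the 13435 genes. Fyb differed by -0.35 and Lat, the membrane adaptor of the pathway, by -0.40. Lcp2, Ptpn22 and Fyb are also made by other leukocytes.

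Costimulatory and inhibitory receptors numbered 15, of which 5 had a mean of at least 1 FPKM, 3 lower and 2 higher in knockouts, and 0 passed. Of all 15, at any level, 13 had lower values in knockouts, as did 49.9% of genes averaging 0.1 FPKM or more. Tnfrsf9, or 4-1BB, measured 1.8 ± 0.284 FPKM in KO and 1.43 ± 0.32 FPKM in WT kidneys (SD, n = 5 each), or 0.21 higher on the log2 scale. Btla, an inhibitory receptor, differed by -0.28, Tnfrsf18 (GITR) by -0.20 and Havcr2 (TIM-3) by -0.11. Among 20 genes of T cell transcription and residence, 13 reached a mean of 1 FPKM, 10 lower and 3 higher, and 0 passed. Cxcr6 measured 1.78 ± 0.376 FPKM in KO and 3.45 ± 1.49 FPKM in WT kidneys (SD, n = 5 each), or -0.62 on the log2 scale (SE 0.218, adjusted p = 0.976 by limma). S1pr1 and Runx3 differed by -0.24 and -0.29. S1pr1 is also made by cells other than T cells, and its highest value of all 10 libraries was in WT 1, at 12.7 FPKM, where the 10 T cell genes were low.

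Markers of other cells that could carry some of these transcripts were set beside them. NK cell markers, 10 genes with none at 0 in all libraries, summed to 6.29 to 10.0 FPKM in KO and 6.58 to 22.4 FPKM in WT kidneys, with WT 1 the lowest wild-type library and the next at 13.5 FPKM. Of 4 with a mean of at least 1 FPKM, 4 had lower values and 0 passed. Gzmb and Nkg7, cytotoxic granule genes that CD8 T cells share with NK cells, differed by -1.07 and -0.94, and Klrd1 and Gzma by -0.27 and -0.12. T and NK cells could not be told apart by these genes, and the part of NK cells in the values of Cd247, Cd2 and Lck was not tested.

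B cell markers, 7 genes with none at 0 in all libraries, summed to 2.44 to 4.91 FPKM in KO and 2.95 to 4.6 FPKM in WT kidneys. Only Cd79b, part of the B cell receptor, reached a mean of 1 FPKM, and it differed by -0.08. Dendritic cell markers, 8 genes, summed to 24.8 to 28.8 FPKM in KO and 17.9 to 34.4 FPKM in WT kidneys, with WT 1 at 17.9 and the other wild-type libraries from 30.9. Of 6 tested, 6 had lower values and 0 passed, with Clec9a, Flt3, Cd209a and Zbtb46 at -0.12, -0.08, -0.04 and -0.02. Macrophage markers, 10 genes, summed to 882 to 1110 FPKM in KO and 516 to 1100 FPKM in WT kidneys, and WT 1 was again the lowest. Of the 10, 3 were lower and 7 higher in knockouts and 0 passed, with Adgre1, Csf1r, Mrc1 and Mertk at -0.35, 0.17, 0.16 and -0.08. Without WT 1, the lowest library in the macrophage sum, 9 of the 10 had lower values. Their median log2 difference was then -0.11, against 0.01 for all genes. The share of all genes with lower values in that setting was not computed.

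**Figure D4:**
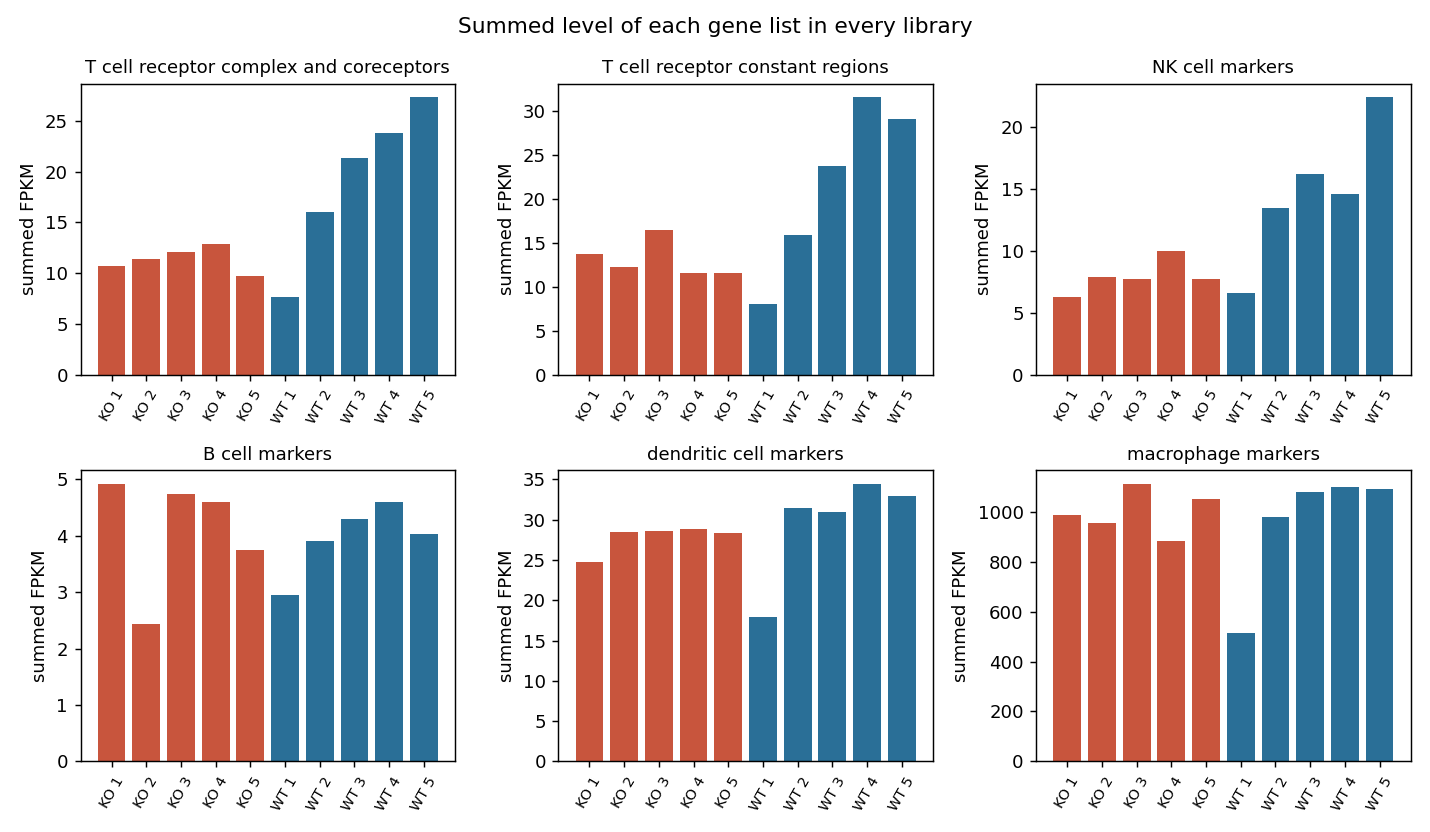
Summed FPKM of 6 gene lists in every library, KO in red and WT in blue. The T cell receptor, constant region, NK and dendritic cell panels share a shape. In these panels WT 1 lies below or among the knockout libraries and WT 2 to WT 5 above most or all of them. In the macrophage panel WT 2 to WT 5 lie within the knockout range of 882 to 1110 FPKM.

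Neutrophil markers, 7 genes, differed in their library order. They summed to 5.66 to 11.3 FPKM in KO and 12.1 to 17.6 FPKM in WT kidneys, and WT 1 had 16.3 FPKM. The sums did not overlap, and how often sums of other genes do so was not computed. Taken singly, S100a9 and Csf3r did not overlap, which was seen for 0.454% of the 13435 genes with knockout lower. S100a8 did overlap, with KO 5 at 4.17 FPKM and WT 5 at 3.46 FPKM. Of 3 tested, 3 had lower values and 0 passed, with S100a9, Csf3r and S100a8 at -0.78, -0.29 and -0.72. WT 1 was thus low in T cell, dendritic cell and macrophage transcripts and not in those of neutrophils. Nephron segment markers split evenly, 4 lower and 4 higher of 8, and 0 passed, with Nphs1, Slc12a3, Slc12a1 and Slc34a1 at -0.22, -0.23, 0.19 and 0.13. Without WT 1 only 2 of the 8 were lower, and their median log2 difference was 0.12 instead of 0.01.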

How the data were processed

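Messenger RNA libraries of 5 Padi4-knockout and 5 wild-type obstructed kidneys were compared, with group and replicate number taken from the sample titles. Alignment was with HISAT2 2.0.5, per the submitters' processing notes, and the sources used here do not give the counter, strand handling or build. The header of the deposited table names no unit. Its values were taken as FPKM, since value times gene length was a whole multiple of 1 step per library, within 0.01 reads, for 100% of values above 0. They had been scaled between libraries by the authors. The steps were in inverse proportion to size factors of the reads (medians of ratios between libraries) and not to the read totals. Coordinates matched GRCm38 for 98.33% of the identifiers found in GENCODE M21.

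Limma 3.58.1 (R 4.3.3) with a variance trend was run on log2(FPKM + 1) for 13435 genes averaging 1 FPKM or more, with genotype as the only term and Benjamini-Hochberg adjustment over all genes (threshold 0.05). The fit with a minimum mean of 0.1 FPKM, an alternative in the design, gave the values of Cd3e and Cd247 and the counts over 10 genes. Fold changes on this scale understate the change of low genes. The fit was tested on simulated reads. The changed genes there had higher counts than most of the 10 genes, and no simulated library stood apart as WT 1 did. That test therefore does not show how the fit performs for genes as low as these. The 10 genes and the lists were chosen with earlier results of these data known. Genes outside the 10 were named by smallest p, up to 4 per list (1 such gene is not reported here), and the 5 with the most similar pattern by Pearson's r, without gene models and pseudogenes. No 2 libraries agreed within sampling noise (lowest chi-square per gene 10.7).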

Additional observations from a re-analysis of the deposited data

Results flagged for a closer look

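Over the 10 genes, 20 groups of 5 values were examined for a library far from the other 4, and 1 was found, where chance flags about 1 group in 20. Cd2 in KO 5 measured 0.415 FPKM, from 12 reads, and its gap to the next knockout library took up 0.777 of the group's range.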

How the results depend on the processing

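Each of the 10 genes was refitted under up to 16 alternatives: pseudocount, filters, scaling, limma-voom on recovered reads, the replicate block and each library left out. In 157 of 158 such fits the direction and the side of the threshold were those reported, and the lowest adjusted p was 0.254. The exception was Cd4 without WT 4, at 0.036, where the fits without another library ran down to -0.234. The counts of genes and of members past the threshold were 0 in every one. Without 1 library, the median over the 8 genes averaging 1 FPKM or more lay between -0.569 (without WT 1) and -0.285 (without WT 4), against -0.394 with all. The ratio of Cd4 to Cd3e passed with a pseudocount of 0.1, at 0.992, and with none, at 1.206 (exact permutation, adjusted p = 0.0476 in both), and ran from 0.287 to 0.484 without 1 library, where that of Cd8a to Cd4 ran from -0.568 to -0.283. With the replicate number as a block the ratios were 0.379 and -0.432 (exact sign-flip permutation, adjusted p = 0.125 in both, where 5 pairs allow no p below 0.0625), and Lck was -0.471 (limma adjusted p = 0.993). Same-numbered libraries showed no common deviation (correlations -0.344 to 0.306, and 1 of 5 knockout libraries was closest to its own number). The labels do not say what the numbers share, so these correlations cannot settle whether the numbers pair the samples. Genes with 12 to 50 reads per library, such as Cd3e, Cd2 and Cd5 in knockout kidneys, are limited by counting error.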
